A study of Mus musculus with 10 samples.

Results

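The kinesin motor genes were taken as every gene whose symbol begins with Kif and a number, or is Kifc and a number, and that has a probe set annotated with that symbol alone. This gave 40 of the 19938 genes analysed, with the probe set of the highest mean kept for the 6 genes that had several. By known role, 12 were mitotic kinesins, 14 were neuronal transport kinesins, 6 were kinesins of cilia and hedgehog signalling, 7 had other roles and 1 was the pseudogene Kif4-ps. The mitotic minus-end motor gene Kifc1 shares its probe set with Kifc5b and was therefore not analysed here. The deposited values are log2 intensities per probe set, and all levels and differences below are on that scale unless a fold is named.

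The series followed mouse embryonic stem cells through culture into neural stem cells, with 2 biological replicates, 1 array each, in each of 5 groups. ESC (mESC in the labels) were cells of the R1 line, which comes from the 129/Sv strain, on feeders of mitomycin C-inactivated embryonic fibroblasts with 15% serum and Lif at 1000 U/ml. pNSC_L (p-NSC_L in the labels) were primitive neural stem cells grown from R1 cells at primary passage in serum-free N2 medium with Lif at 1000 U/ml. pNSC_LF (p-NSC_LF) were their secondary passage in Lif at 1000 U/ml, FGF at 10 ng/ml and heparin. dNSC (d-NSC) were definitive neural stem cells derived from them in N2 and B27 with EGF and FGF at 20 ng/ml each and heparin. CNS_NSC (CNS-NSC) were wild type neural stem cells from the frontal lobes of E11.5 embryos of the ICR strain, cultured in N2 with EGF and FGF at 20 ng/ml each and heparin. The labels trace all cells but CNS_NSC to the R1 line, and strain, source and culture cannot be told apart in any comparison with CNS_NSC.

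Kinesins are motor proteins that use ATP to walk along microtubules or to take them apart. One set builds the mitotic spindle, aligns chromosomes and completes cytokinesis, and its genes are transcribed mainly in dividing cells. Another set carries vesicles, mitochondria and receptors along axons and dendrites, through adaptors such as the kinesin light chains, while a few kinesins shape cilia or transmit hedgehog signals. Neural stem cells divide, and their progeny extend long processes, so both sets have known uses in neural cultures.

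Array medians lay between 7.66 and 7.76, and the lower quartile of probe sets between 6.39 and 6.49. Replicates correlated across genes, which are not independent replicates, at 0.9885 to 0.9972, lowest in CNS_NSC and pNSC_L. None of the 40 kinesins (0) differed by 1.5-fold between the replicates of a group, although 277 genes did so by 2-fold in CNS_NSC and 167 in pNSC_L. Hprt, a purine salvage enzyme gene, was at 6.99 and 6.76 in ESC but at 10.45 or more on each of the other 8 arrays. In comparisons with ESC, cell line and culture therefore cannot be told apart. The summed linear intensity of 5 pluripotency markers was 23310 to 25070 in ESC, 4886 to 5190 in dNSC and 791.4 to 796.0 in CNS_NSC. That of 5 neural stem cell markers was 1351 to 1446, 25370 to 26510 and 33110 to 33270 in the same groups. The pluripotency sum was 25510 to 26350 in pNSC_L and 25680 to 27000 in pNSC_LF, above that of ESC. The neural stem cell sum was 1296 to 1351 in pNSC_L and 1204 to 1298 in pNSC_LF, not above that of ESC. The name primitive neural stem cells is that of the labels.

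The groups were compared in 6 pairs with limma, fitted on all genes, and a gene is said to rise or fall where its adjusted p was below 0.05. The comparisons share groups and are not independent. From pNSC_LF to dNSC 9 kinesins rose and 10 fell, where 38.6% of all genes were called (19.3% higher, 19.3% lower), so the share of kinesins, 19 of 40, was not far from that background. Between dNSC and ESC 7 rose and 15 fell (background 40.5%, with 20.7% higher and 19.9% lower). In CNS_NSC against ESC 10 rose and 14 fell (background 43.8%, with 21.7% higher and 22.1% lower). In dNSC against CNS_NSC 4 rose and 12 fell (background 34%, with 17.6% higher and 16.5% lower). The step from ESC to pNSC_L saw 3 rise and 2 fall (background 13.4%, with 6.56% higher and 6.79% lower). In pNSC_LF against pNSC_L limma called 0 (background 1.78%, with 1.1% higher and 0.677% lower), with 7 of 40 at an unadjusted p below 0.05, 6 of them lower. In all, 29 kinesins were called in at least 1 of the 6 comparisons and 11 in none. The same background shares apply to every list counted below.

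With 2 arrays per group, arrays that do not overlap are common. The arrays of both groups were separate for 20 of 40 kinesins in pNSC_L against ESC (49.3% of all genes), 20 in pNSC_LF against pNSC_L (39.7%), 34 in dNSC against pNSC_LF (72.7%), 33 in dNSC against ESC (73%), 28 in CNS_NSC against ESC (70.8%) and 27 in dNSC against CNS_NSC (66.2%). Separate arrays are therefore given below as a description of single genes.

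**Figure D1:**
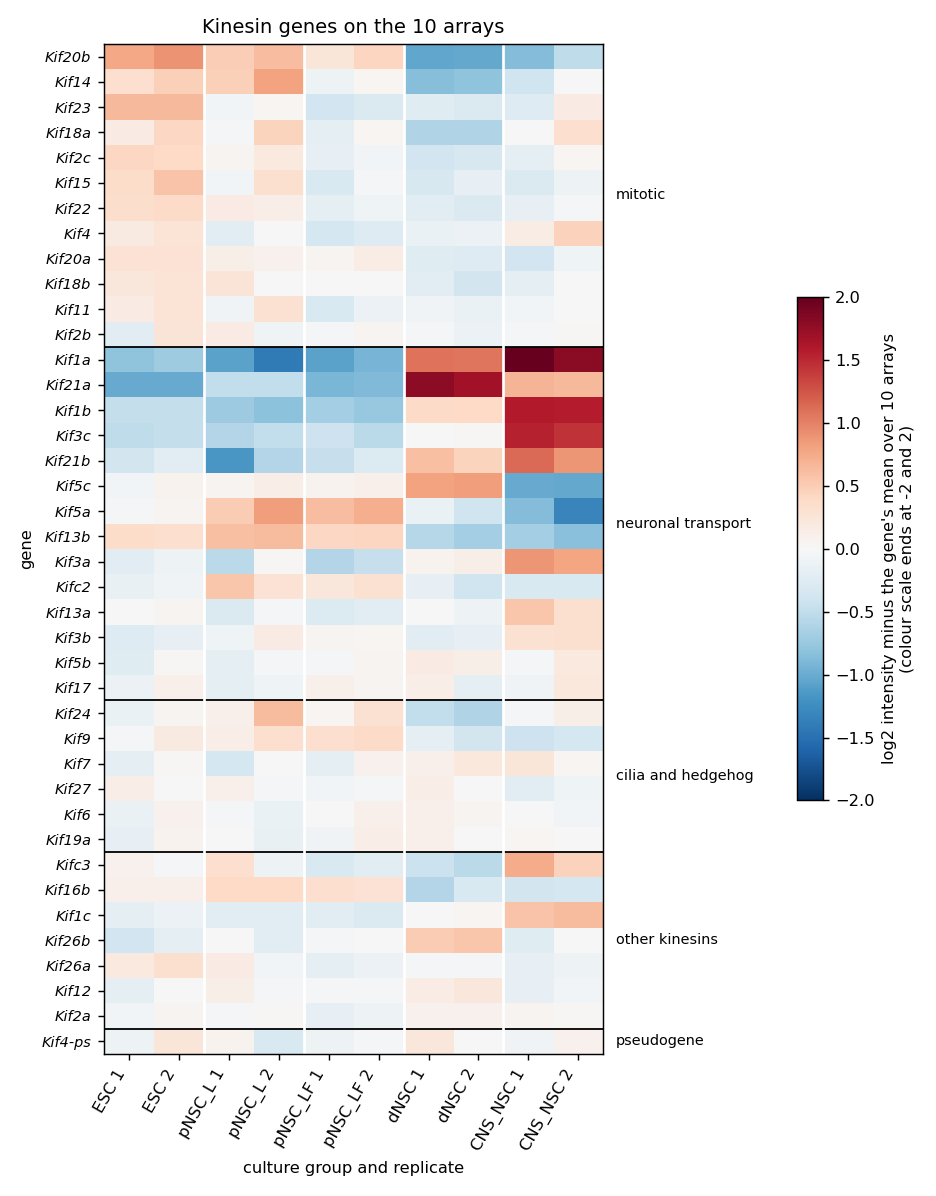
Heat map of the 40 kinesin genes (rows, grouped by role) on the 10 arrays (columns, grouped by culture), coloured by the log2 intensity minus the gene's mean over all arrays. The mitotic genes are mostly above their means in ESC, where 9 of 12 were highest, and below them in dNSC, where 9 of 12 were lowest; the neuronal transport genes divide between those highest in CNS_NSC, 7 of 14, and those highest elsewhere.

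The mitotic kinesins were highest in ESC for 9 of 12 genes and lowest in dNSC for 9 of 12. In dNSC against ESC 10 of 12 fell and 0 rose, with a median difference of -0.67 against 0.03 over all genes. In CNS_NSC against ESC 8 fell and 0 rose (median -0.47, all genes 0.04). By passage, 1 fell in pNSC_L against ESC (median -0.21, all genes 0.02), 0 were called in pNSC_LF against pNSC_L (median -0.26, all genes 0.01), and 4 fell in dNSC against pNSC_LF (median -0.18, all genes -0.01). In bulk RNA, fewer cells of a kind and less RNA per cell cannot be told apart. This holds for dividing cells here as well. Of all genes 19.9% fell in dNSC against ESC and 22.1% in CNS_NSC against ESC. The shares that fell were 6.79% in pNSC_L against ESC and 19.3% in dNSC against pNSC_LF.

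Kif20b, a plus-end motor of the midbody needed to finish cytokinesis in neural progenitors, moved most. It read 11.08 and 11.21 on the ESC arrays, 10.80 and 10.93 in pNSC_L, 10.56 and 10.74 in pNSC_LF, 9.27 and 9.29 in dNSC, and 9.44 and 9.80 in CNS_NSC. No 2 groups overlapped, and the arrays fell into a high set of ESC and primitive cells and a low set of both kinds of EGF-grown cells. Kif20b fell by 1.87 ± 0.13 (3.66-fold, adjusted p = 2.7e-06 by limma) in dNSC against ESC and by 1.52 ± 0.13 (adjusted p = 6.6e-06) in CNS_NSC against ESC. Most of the fall lay between pNSC_LF and dNSC, at -1.37 ± 0.13 (adjusted p = 2.1e-05 by limma). Of the neighbours in the order of levels, 3 pairs were compared and none passed the test: pNSC_L and ESC differed by -0.28 ± 0.13 (adjusted p = 0.22), pNSC_LF and pNSC_L by -0.22 ± 0.13 (adjusted p = 0.56), and dNSC and CNS_NSC by -0.35 ± 0.13 (adjusted p = 0.072). The wide gap between pNSC_LF and CNS_NSC was not among the comparisons. Without CNS_NSC replicate 1 the difference of dNSC from CNS_NSC was -0.53 (adjusted p = 0.013).

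Kif14, which acts at the midbody beside citron kinase, followed a similar order with a high value in pNSC_L. Its levels were 10.24 and 10.40 in ESC, 10.40 and 10.72 in pNSC_L, 9.82 and 9.96 in pNSC_LF, 9.07 and 9.12 in dNSC, and 9.51 and 9.92 in CNS_NSC. Both dNSC arrays lay below all others, and pNSC_LF and CNS_NSC overlapped. In dNSC Kif14 fell by 1.23 ± 0.16 against ESC (2.34-fold, adjusted p = 0.00013 by limma) and by 0.80 ± 0.16 against pNSC_LF (adjusted p = 0.0022). It was also lower in CNS_NSC than in ESC (-0.60 ± 0.16, adjusted p = 0.0092 by limma) and in dNSC than in CNS_NSC (-0.62 ± 0.16, adjusted p = 0.011). The last pair of calls was lost with the mean of all probe sets of the gene. That in CNS_NSC against ESC was also lost without ESC replicate 2 or CNS_NSC replicate 1 (adjusted p up to 0.073), and that in dNSC against CNS_NSC without dNSC replicate 1 or 2 or CNS_NSC replicate 2 (up to 0.10). The second probe set of Kif14 read 5.33 to 5.65 on every array, below the lower quartile.

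Kif23, the motor subunit of the centralspindlin complex that bundles midzone microtubules, was the mitotic kinesin called at the first step. ESC arrays read 11.82 and 11.83, pNSC_L 11.12 and 11.21, pNSC_LF 10.80 and 10.88, dNSC 10.94 and 10.89, and CNS_NSC 10.92 and 11.35. ESC stood above all 8 other arrays, which lay within 10.80 to 11.35. Kif23 fell by 0.66 ± 0.13 in pNSC_L against ESC (adjusted p = 0.010 by limma), a call lost without ESC replicate 1 or 2 (adjusted p up to 0.068). It fell by 0.91 ± 0.13 in dNSC (adjusted p = 0.00036) and by 0.69 ± 0.13 in CNS_NSC (adjusted p = 0.0017 by limma), both against ESC. From pNSC_LF to dNSC it differed by 0.08 ± 0.13 (adjusted p = 0.71), unlike the fitted fall of Kif20b at that step; the difference between the genes was not tested.

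Kif2c, a kinesin that takes microtubules apart at centromeres, read 11.20 and 11.20 in ESC, 10.85 and 10.99 in pNSC_L, 10.63 and 10.74 in pNSC_LF, 10.41 and 10.47 in dNSC, and 10.62 and 10.84 in CNS_NSC. Only pNSC_LF and CNS_NSC overlapped among its groups. It fell by 0.76 ± 0.11 in dNSC (adjusted p = 0.00035 by limma) and by 0.47 ± 0.11 in CNS_NSC (adjusted p = 0.0056), both against ESC. Kif20a, a cytokinesis motor that brings Aurora B to the spindle midzone, read 11.38 and 11.39 in ESC, 11.22 and 11.18 in pNSC_L, 11.15 and 11.24 in pNSC_LF, 10.85 and 10.83 in dNSC, and 10.71 and 11.01 in CNS_NSC. The EGF-grown arrays were all below the other 6. Kif20a fell by 0.55 ± 0.11 in dNSC (adjusted p = 0.0031 by limma) and by 0.53 ± 0.11 in CNS_NSC (adjusted p = 0.0033), both against ESC.

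Kif4, a chromokinesin that binds chromosome arms, and Kif11, the motor that slides spindle poles apart, followed other courses. Kif4 read 10.22 and 10.31 in ESC, 9.82 and 10.04 in pNSC_L, 9.69 and 9.77 in pNSC_LF, 9.91 and 9.91 in dNSC, and 10.19 and 10.49 in CNS_NSC. ESC and CNS_NSC overlapped and stood above the other 6 arrays. Its fall of 0.35 ± 0.13 in dNSC against ESC (adjusted p = 0.048 by limma) was lost without any 1 of ESC replicate 1, ESC replicate 2, dNSC replicate 1 and dNSC replicate 2 (adjusted p up to 0.20) and after quantile or cyclic loess normalization. Kif11 read 12.13 and 12.24 in ESC, 11.90 and 12.28 in pNSC_L, 11.67 and 11.85 in pNSC_LF, 11.90 and 11.83 in dNSC, and 11.92 and 11.98 in CNS_NSC. The pNSC_L arrays spanned those of ESC, and no comparison called Kif11: in dNSC against ESC it differed by -0.32 ± 0.13 (adjusted p = 0.090 by limma, or 0.020 with only those groups in the fit).

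Among the other mitotic members, Kif15 and Kif18b, a reserve motor for spindle bipolarity and a motor of astral microtubule ends, and Kif22, a chromosome arm motor, fell in dNSC against ESC by 0.71 ± 0.16, 0.53 ± 0.12 and 0.63 ± 0.10. Kif18a, which damps chromosome oscillation at metaphase, read 10.76 and 11.02 in ESC, 10.57 and 11.06 in pNSC_L, 10.43 and 10.64 in pNSC_LF, 10.00 and 10.01 in dNSC, and 10.61 and 10.94 in CNS_NSC. Both dNSC arrays lay below all others, which overlapped, and Kif18a fell in dNSC against ESC by 0.88 ± 0.18 (adjusted p = 0.0024 by limma). In CNS_NSC against ESC Kif15 fell by 0.66 ± 0.16 and Kif22 by 0.47 ± 0.10. The Kif18b call in dNSC was lost without dNSC replicate 2 (adjusted p = 0.057). That in CNS_NSC, -0.34 ± 0.12, was lost after cyclic loess normalization, with only its 2 groups in the fit, and without ESC replicate 1 or 2 or CNS_NSC replicate 1 (adjusted p up to 0.23). The Kif15 call in CNS_NSC was lost without ESC replicate 2 (adjusted p = 0.054). Kif2b, a relative of Kif2c, was below the lower quartile on 2 arrays and was called in no comparison.

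In dNSC against pNSC_LF, Kif18a (-0.53 ± 0.18) and Kif20a (-0.35 ± 0.11) fell beside Kif20b and Kif14, but both calls were lost without any 1 of pNSC_LF replicate 1, pNSC_LF replicate 2, dNSC replicate 1 and dNSC replicate 2 (adjusted p up to 0.21 and 0.17). In dNSC against CNS_NSC the 3 that fell were Kif14, Kif18a (-0.77 ± 0.18, adjusted p = 0.0068 by limma) and Kif4 (-0.43 ± 0.13, adjusted p = 0.023), with a median of -0.20 over the 12 against -0.01 over all genes. There 16.5% of all genes were lower. Kif18a lost its call without CNS_NSC replicate 2 (adjusted p = 0.051). Kif4 lost it with only its 2 groups in the fit and without dNSC replicate 1 or 2 or CNS_NSC replicate 2 (adjusted p up to 0.15). All 12 mitotic kinesins were higher on CNS_NSC replicate 2 than on replicate 1, by a median of 0.26, where 51.7% of all genes were. The second replicate was also the higher for 11 of 12 in ESC (49.7% of all genes), 8 of 12 in pNSC_L (41%), 11 of 12 in pNSC_LF (52.1%) and 6 of 12 in dNSC (43.8%). Leaving out each of the 4 arrays in turn gave medians from -0.35 to -0.089 for this comparison.

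**Figure D2:**
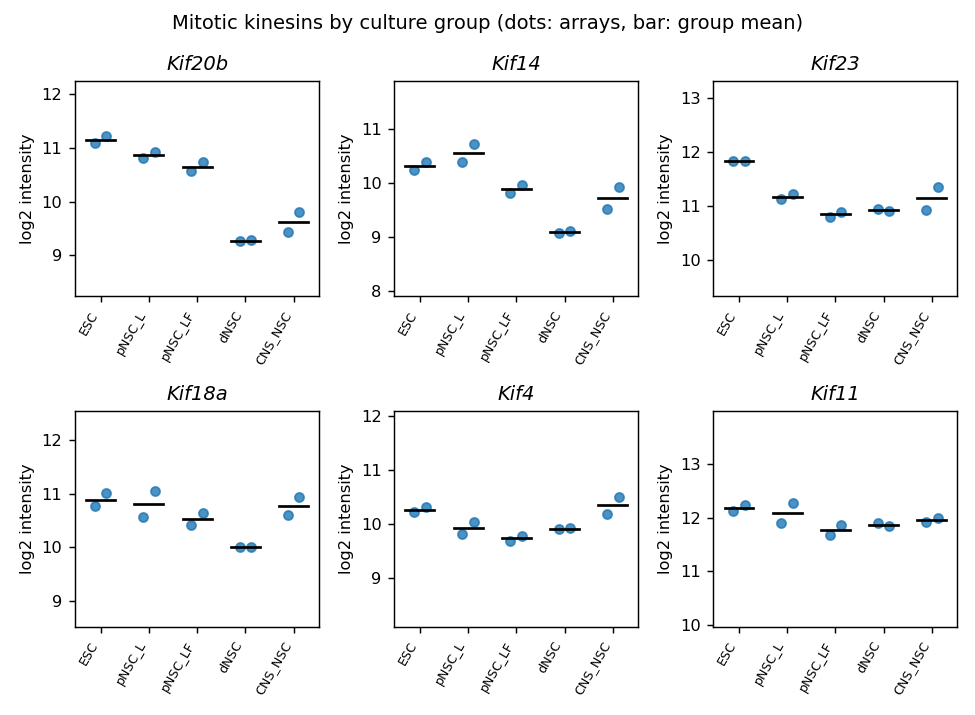
Log2 intensity of 6 mitotic kinesins on each array (points, 2 per group) with the group mean (bar), 1 panel per gene, over the 5 groups. All panels span the same number of log2 units but start at different values, and levels are not to be compared between genes. Kif20b drops from 10.56 or more in ESC and primitive cells to 9.80 or less in dNSC and CNS_NSC, while Kif11 stays within 11.67 to 12.28.

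Promoter sequences are shown for 4 mitotic kinesins that fell and 2 transport kinesins that rose, to set beside the counts of promoter letters that follow. The RefSeq promoter table (GRCm38.p6) held 11 of the 12 mitotic genes and 9 of the 14 transport genes, with 11 starts each, as windows of 250 bases before to 50 after the start. Each print runs from 90 bases before to 26 after the start, 5′ to 3′ on the strand of the gene. Capitals mark CCAAT (or ATTGG on the other strand), the letters bound by NF-Y, and TTTGAA (or TTCAAA), the core letters of the cell cycle genes homology region. All 4 mitotic prints hold TTTGAA, so they do not stand for mitotic genes without it near the start. Kif14 and Kif2c (-1.23 and -0.76 in dNSC against ESC) have it only at -228 and -103 from the start and are not printed. The windows are chr19:34922268-34922383 (plus strand) for Kif20b, chr9:61946774-61946889 (minus) for Kif23, chr7:127042395-127042510 (minus) for Kif22, chr11:102925099-102925214 (minus) for Kif18b, chr1:93101849-93101964 (minus) for Kif1a and chr12:3365042-3365157 (plus) for Kif3c.
Kif20b: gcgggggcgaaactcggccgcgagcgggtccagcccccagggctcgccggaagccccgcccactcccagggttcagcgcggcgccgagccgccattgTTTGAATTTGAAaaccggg
Kif23: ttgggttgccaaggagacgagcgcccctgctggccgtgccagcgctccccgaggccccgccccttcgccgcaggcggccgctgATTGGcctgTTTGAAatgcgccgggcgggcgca
Kif22: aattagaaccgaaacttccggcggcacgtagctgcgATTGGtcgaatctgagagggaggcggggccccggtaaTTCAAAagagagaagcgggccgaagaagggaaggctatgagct
Kif18b: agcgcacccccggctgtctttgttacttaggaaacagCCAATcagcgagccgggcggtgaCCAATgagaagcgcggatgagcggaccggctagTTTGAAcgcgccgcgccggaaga
Kif1a: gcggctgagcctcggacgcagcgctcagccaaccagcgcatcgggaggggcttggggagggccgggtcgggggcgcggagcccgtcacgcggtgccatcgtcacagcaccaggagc
Kif3c: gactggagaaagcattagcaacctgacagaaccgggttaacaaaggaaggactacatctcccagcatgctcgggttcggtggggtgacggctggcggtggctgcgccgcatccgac

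TTTGAA on either strand lay in the 300-base window of 9 of 11 mitotic starts (81.8%) and 1 of 11 transport starts (9.09%). The share of all 32851 promoters was 17.9%. The transport match belongs to Kif1a, 44 bases before a start other than the one printed above, which has none. CCAAT on either strand was in 7 of 11 mitotic starts (63.6%), 4 of 11 transport starts (36.4%) and 37.4% of all promoters. The related core TTCGAA, which is its own reverse complement and overlaps neither of the others, was in 0 of the starts of both roles and in 1.56% of all promoters. CCAAT together with either core was in 6 of 11 mitotic starts (54.5%), 0 of 11 transport starts and 7.52% of all promoters. Within 25 bases of the start, a window chosen after the positions had been seen, TTTGAA was found at 7 of 11 mitotic starts (63.6%), those of Kif11, Kif15, Kif22, Kif23, Kif18b, Kif20b and Kif4, and at 2.7% of all promoters. In Kif20b it occurs in tandem, beginning 8 and 14 bases into the transcript, and in Kif23 it begins 3 bases in. A match of letters describes the window only, and its part in the changes in level was not tested.

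Genes that work with the mitotic motors were counted in the same way. Shares of all genes called either way were 40.5% in dNSC against ESC, 43.8% in CNS_NSC against ESC and 13.4% in pNSC_L against ESC. They were 38.6% in dNSC against pNSC_LF, 34% in dNSC against CNS_NSC and 1.78% in pNSC_LF against pNSC_L. Medians over all genes lay between -0.01 and 0.04. Of 20 measured spindle partners, 13 fell and 0 rose in dNSC against ESC (median -0.47), 8 fell and 2 rose in CNS_NSC against ESC (median -0.21), and 5 fell and 0 rose in pNSC_L against ESC (median -0.34). Anln, the cytokinesis scaffold anillin, fell by 1.17 ± 0.17 in dNSC against ESC (adjusted p = 0.00033 by limma), and Bub1b, a spindle checkpoint kinase, by 0.98 ± 0.09. Birc5, the survivin subunit of the chromosomal passenger complex, fell by 1.01 ± 0.18. Racgap1, which binds Kif23 in centralspindlin, rose by 0.58 ± 0.11 in dNSC against pNSC_LF (adjusted p = 0.0024 by limma) and by 0.41 ± 0.11 in CNS_NSC against ESC, where Mki67, a proliferation marker, rose by 0.50 ± 0.13. Of the spindle partners 5 fell and 1 rose in dNSC against pNSC_LF (median -0.05), 5 fell and 0 rose in dNSC against CNS_NSC (median -0.26), and 0 were called in pNSC_LF against pNSC_L (median -0.14).

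The 6 feeder fibroblast markers, which mark the other cell type of the ESC cultures, had a summed linear intensity of 1405 to 1450 in ESC, 1678 to 2543 in pNSC_L, 1217 to 1235 in pNSC_LF, 1963 to 2052 in dNSC and 1032 to 1198 in CNS_NSC. The share of all genes called either way was 13.4% in pNSC_L against ESC, 40.5% in dNSC against ESC and 43.8% in CNS_NSC against ESC. Of the 6 markers, 3 rose and 1 fell in pNSC_L against ESC, 4 rose and 1 fell in dNSC against ESC, and 0 rose and 1 fell in CNS_NSC against ESC. The one that fell was Thy1 in each (-0.76 ± 0.17, -1.49 ± 0.17 and -0.92 ± 0.17), which made up 47.5% to 52.4% of the sum in ESC. Without it the sum was 689.8 to 737.2 in ESC, 1253 to 2124 in pNSC_L, 810.5 to 832.1 in pNSC_LF, 1726 to 1782 in dNSC and 721.5 to 738.7 in CNS_NSC, and Lum was below 6.39 on all 10 arrays. The largest rise of the list against ESC, in pNSC_L and in dNSC, was that of Dcn. Dcn read 6.06 and 6.48 in ESC, 8.79 and 10.41 in pNSC_L, and 9.54 and 9.54 in dNSC. Col1a1 was not called in dNSC against ESC (0.24 ± 0.12, adjusted p = 0.14 by limma). The part of fibroblasts in the mitotic kinesin differences was not tested.

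The neuronal transport kinesins did not move as a block. In CNS_NSC against ESC 8 of 14 rose and 3 fell (median 0.47, all genes 0.04), and in dNSC against ESC 6 rose and 1 fell (median 0.25, all genes 0.03). In dNSC against pNSC_LF 7 rose and 3 fell (median 0.34, all genes -0.01), whereas in pNSC_L against ESC 3 rose and 1 fell (median -0.03, all genes 0.02) and in pNSC_LF against pNSC_L 0 were called (median -0.01). In dNSC against CNS_NSC 3 were higher and 6 lower (median -0.29, all genes -0.01). The range of group means over the 14 genes ran from 0.21 to 3.17 with a median of 1.57, beyond that of the mitotic genes, 0.11 to 1.87 with a median of 0.67. That difference was not tested. Of all genes 21.7% rose and 22.1% fell in CNS_NSC against ESC, and 20.7% and 19.9% in dNSC against ESC. These shares were 19.3% and 19.3% in dNSC against pNSC_LF, and 6.56% and 6.79% in pNSC_L against ESC. In dNSC against CNS_NSC 17.6% of all genes were higher and 16.5% lower.

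Kif1a, the main axonal motor of synaptic vesicle precursors, had low levels in ESC and primitive cells and high levels in both neural stem cell cultures. It read 8.28 and 8.38 in ESC, 8.01 and 7.68 in pNSC_L, 8.01 and 8.16 in pNSC_LF, 10.17 and 10.16 in dNSC, and 11.12 and 10.90 in CNS_NSC. The last 4 arrays lay well above the rest, with CNS_NSC above dNSC. Kif1a rose by 2.08 ± 0.13 from pNSC_LF to dNSC (4.24-fold, adjusted p = 1.2e-06 by limma). It rose by 2.68 ± 0.13 (6.43-fold, adjusted p = 1.0e-07) in CNS_NSC and by 1.84 ± 0.13 in dNSC, both against ESC, and was lower in dNSC than in CNS_NSC by -0.84 ± 0.13 (adjusted p = 0.00071 by limma). It fell by 0.48 ± 0.13 in pNSC_L against ESC (adjusted p = 0.040), a call lost with only its 2 groups in the fit and without ESC replicate 1, ESC replicate 2 or pNSC_L replicate 2 (adjusted p up to 0.20).

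Kif1b, a relative that carries mitochondria and synaptic vesicle precursors, had the same order of the neural cultures. Its levels were 9.65 and 9.66 in ESC, 9.41 and 9.32 in pNSC_L, 9.45 and 9.38 in pNSC_LF, 10.52 and 10.53 in dNSC, and 11.72 and 11.70 in CNS_NSC. No group overlapped another except the primitive cells of the 2 passages. Kif1b rose by 1.11 ± 0.09 in dNSC against pNSC_LF (adjusted p = 8.1e-06 by limma), by 2.05 ± 0.09 in CNS_NSC against ESC (4.14-fold, adjusted p = 5.6e-08), and was lower in dNSC than in CNS_NSC by -1.18 ± 0.09 (adjusted p = 5.9e-06).

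Kif21a, a brake on microtubule growth in axons that is known for its role in eye muscle nerves, was the transport kinesin with the largest rise in dNSC. Values were 7.52 and 7.53 in ESC, 8.05 and 8.04 in pNSC_L, 7.61 and 7.65 in pNSC_LF, 10.33 and 10.21 in dNSC, and 9.22 and 9.18 in CNS_NSC. All groups were separate, and dNSC lay above CNS_NSC, the reverse of Kif1a and Kif1b. Kif21a rose by 2.64 ± 0.09 from pNSC_LF to dNSC (6.23-fold, adjusted p = 3.9e-08 by limma), by 1.68 ± 0.09 in CNS_NSC against ESC (adjusted p = 2.5e-07), and was higher in dNSC than in CNS_NSC by 1.07 ± 0.09 (adjusted p = 1.3e-05). In pNSC_L against ESC it rose by 0.52 ± 0.09 (adjusted p = 0.0060), or adjusted p = 0.052 without ESC replicate 1. At the next passage it differed by -0.41 ± 0.09 (adjusted p = 0.063 by limma), and by -0.44 after quantile normalization (adjusted p = 0.039).

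Kif21b, its relative in dendrites and axons, read 8.59 and 8.74 in ESC, 7.78 and 8.35 in pNSC_L, 8.49 and 8.67 in pNSC_LF, 9.55 and 9.39 in dNSC, and 10.08 and 9.82 in CNS_NSC. Both neural stem cell groups stood above the other 6 arrays, and the pNSC_L replicates were the furthest apart. Kif21b rose by 0.89 ± 0.18 in dNSC against pNSC_LF (adjusted p = 0.0027 by limma) and by 1.29 ± 0.18 in CNS_NSC against ESC (adjusted p = 0.00018). Between pNSC_L and ESC it differed by -0.60 ± 0.18 (adjusted p = 0.056), or -0.88 without pNSC_L replicate 2 (adjusted p = 0.0064 by limma). Without that array the difference of pNSC_LF from pNSC_L was 0.80 (adjusted p = 0.026).

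The kinesin-2 genes Kif3a, Kif3b and Kif3c, whose products work as heterodimers in axons and in the assembly of cilia, differed in their changes. Kif3c, the subunit found mostly in neurons, read 7.90 and 7.93 in ESC, 7.82 and 7.91 in pNSC_L, 7.99 and 7.86 in pNSC_LF, 8.42 and 8.43 in dNSC, and 9.95 and 9.84 in CNS_NSC. The 6 arrays of ESC and primitive cells lay within 7.82 to 7.99, and CNS_NSC stood well above dNSC. Kif3c rose by 1.99 ± 0.10 in CNS_NSC against ESC (3.96-fold, adjusted p = 1.1e-07 by limma) and by 0.50 ± 0.10 in dNSC against pNSC_LF (adjusted p = 0.0027), and was lower in dNSC than in CNS_NSC by -1.47 ± 0.10 (adjusted p = 2.0e-06). Kif3a, the subunit common to these heterodimers, read 8.57 and 8.67 in ESC, 8.24 and 8.80 in pNSC_L, 8.18 and 8.32 in pNSC_LF, 8.85 and 8.89 in dNSC, and 9.67 and 9.56 in CNS_NSC. The neural groups were above the others, although the second pNSC_L array came close to dNSC. Kif3a rose by 1.00 ± 0.16 in CNS_NSC against ESC (adjusted p = 0.00053 by limma) and by 0.62 ± 0.16 in dNSC against pNSC_LF (adjusted p = 0.012). The latter call was lost without pNSC_LF replicate 1, dNSC replicate 1 or dNSC replicate 2 (adjusted p up to 0.081). Kif3b, the partner of Kif3a in most tissues, rose in CNS_NSC against ESC by 0.52 ± 0.11 and was lower in dNSC than in CNS_NSC by -0.51 ± 0.11. It was not called in dNSC against ESC (0.01 ± 0.11) or against pNSC_LF (-0.24 ± 0.11, adjusted p = 0.11 by limma). After quantile normalization the latter difference was -0.30 (adjusted p = 0.033 by limma).

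The 3 kinesin-1 heavy chains, which haul mitochondria and vesicles with the kinesin light chains, took 3 different courses. Kif5c, a chain enriched in neurons, read 8.52 and 8.64 in ESC, 8.64 and 8.71 in pNSC_L, 8.64 and 8.68 in pNSC_LF, 9.37 and 9.40 in dNSC, and 7.57 and 7.55 in CNS_NSC. The ES-derived neural stem cells were the highest group and the embryonic ones the lowest, with the other 6 arrays close together between them. Kif5c rose by 0.73 ± 0.10 in dNSC against pNSC_LF (adjusted p = 0.00018 by limma), fell by 1.02 ± 0.10 in CNS_NSC against ESC (adjusted p = 1.2e-05), and was 3.54-fold higher in dNSC than in CNS_NSC (1.82 ± 0.10, adjusted p = 3.4e-07).

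Kif5a, the chain most restricted to neurons, was highest in the primitive cells. It read 8.58 and 8.67 in ESC, 9.13 and 9.46 in pNSC_L, 9.23 and 9.34 in pNSC_LF, 8.47 and 8.21 in dNSC, and 7.75 and 7.30 in CNS_NSC. The pNSC_L and pNSC_LF arrays overlapped and stood above all others, and CNS_NSC was lowest. Kif5a fell by 0.94 ± 0.17 in dNSC against pNSC_LF (adjusted p = 0.0013 by limma) and by 1.10 ± 0.17 in CNS_NSC against ESC (adjusted p = 0.00033), and was higher in dNSC than in CNS_NSC by 0.82 ± 0.17 (adjusted p = 0.0034). Its rise of 0.67 ± 0.17 in pNSC_L against ESC (adjusted p = 0.027) was lost without ESC replicate 1, ESC replicate 2 or pNSC_L replicate 2 (adjusted p up to 0.15). Kif5b, the chain made in nearly all cells, read 11.78 and 12.05 in ESC, 11.83 and 11.99 in pNSC_L, 11.98 and 12.07 in pNSC_LF, 12.18 and 12.13 in dNSC, and 12.01 and 12.21 in CNS_NSC. Every group overlapped another, and no comparison called Kif5b, with differences from -0.01 to 0.24 in size; after cyclic loess normalization it was called higher in dNSC (0.32, adjusted p = 0.046 by limma) and CNS_NSC (0.32, adjusted p = 0.043) against ESC.

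**Figure D3:**
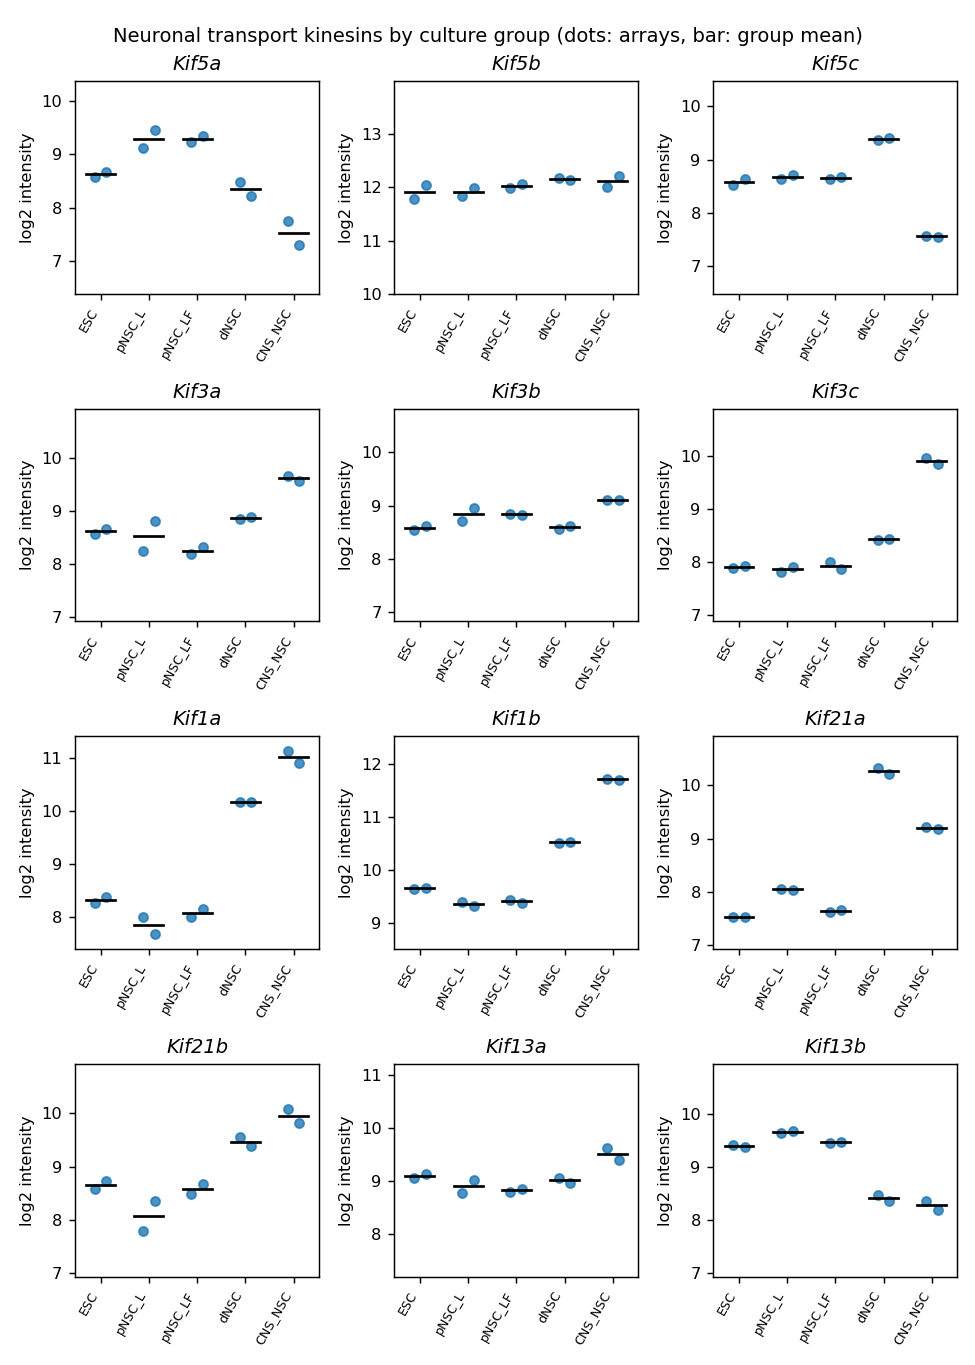
Log2 intensity of 12 neuronal transport kinesins on each array (points, 2 per group) with the group mean (bar), 1 panel per gene, over the 5 groups, with vertical axes of equal span that start at different values. Kif1a, Kif1b, Kif3c and Kif21b have their highest means in CNS_NSC, whereas Kif5c (9.37 and 9.40 against 7.57 and 7.55) and Kif21a are highest in dNSC and Kif5a and Kif13b are highest in primitive cells.

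Kif13b, a transporter of phosphoinositides and membrane proteins, was lower in both neural stem cell cultures. It read 9.40 and 9.37 in ESC, 9.64 and 9.67 in pNSC_L, 9.45 and 9.46 in pNSC_LF, 8.46 and 8.36 in dNSC, and 8.37 and 8.20 in CNS_NSC. The dNSC and CNS_NSC arrays overlapped and lay below all the rest. Kif13b fell by 1.05 ± 0.10 in dNSC against pNSC_LF (2.07-fold, adjusted p = 2.1e-05 by limma) and by 1.10 ± 0.10 in CNS_NSC against ESC (adjusted p = 9.2e-06). Its relative Kif13a, an endosome motor, rose in CNS_NSC against ESC by 0.41 ± 0.12 (adjusted p = 0.018) and was lower in dNSC than in CNS_NSC by -0.49 ± 0.12 (adjusted p = 0.0097). The first call was lost without ESC replicate 1, ESC replicate 2 or CNS_NSC replicate 1 (adjusted p up to 0.12), the second without dNSC replicate 2 or CNS_NSC replicate 1 (up to 0.078).

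Kifc2, a minus-end motor expressed in brain, was the third member to rise in pNSC_L against ESC. Its levels were 7.64 and 7.72 in ESC, 8.34 and 8.07 in pNSC_L, 8.02 and 8.10 in pNSC_LF, 7.62 and 7.38 in dNSC, and 7.48 and 7.49 in CNS_NSC. Primitive cells were above the other 6 arrays. Kifc2 rose by 0.53 ± 0.12 in pNSC_L against ESC (adjusted p = 0.021 by limma), which was lost with only those groups in the fit and without ESC replicate 1, ESC replicate 2 or pNSC_L replicate 1 (adjusted p up to 0.13). It fell by 0.56 ± 0.12 in dNSC against pNSC_LF (adjusted p = 0.0050, or 0.060 without dNSC replicate 2). Kif17, a dendritic motor for glutamate receptors, was called in no comparison and had a group-mean range of 0.21, the smallest among the transport genes. None of the 5 calls in pNSC_L against ESC (0) held in every alternative: 0 kinesins were called without ESC replicate 1 and 1 without ESC replicate 2.

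Cargo adaptors and the other microtubule genes gave a mixed picture beside the motors. Either way, 38.6% of all genes were called in dNSC against pNSC_LF, 40.5% in dNSC against ESC and 43.8% in CNS_NSC against ESC. The shares were 34% in dNSC against CNS_NSC, 13.4% in pNSC_L against ESC and 1.78% in pNSC_LF against pNSC_L. Medians over all genes lay between -0.01 and 0.04. Of 18 measured kinesin adaptors 6 rose and 5 fell in dNSC against pNSC_LF (median 0.09), 8 rose and 2 fell in dNSC against ESC (median 0.18), 10 rose and 2 fell in CNS_NSC against ESC (median 0.43), and 0 rose and 6 fell in dNSC against CNS_NSC (median -0.15). Fez1, an adaptor that links kinesin-1 to axonal cargo, read 7.80 to 8.04 on the 6 arrays of ESC and primitive cells, 10.11 and 10.17 in dNSC, and 11.44 and 10.996 in CNS_NSC. It rose by 2.21 ± 0.14 in dNSC against pNSC_LF (adjusted p = 1.0e-06 by limma) and by 3.39 ± 0.14 in CNS_NSC against ESC. Grip1, which joins kinesin-1 to glutamate receptors, rose by 2.42 ± 0.16 in dNSC against pNSC_LF. The light chain Klc1 rose at that step by 0.42 ± 0.10, and the scaffold Spag9 rose by 1.97 ± 0.12 in CNS_NSC against ESC. Other adaptors were lower in dNSC than in pNSC_LF. Hap1 read 9.53 and 9.55 in pNSC_LF and 8.93 and 8.88 in dNSC. The light chain Klc4 read 8.26 and 8.30 in pNSC_LF and 8.08 and 7.77 in dNSC. Trak2, a mitochondrial adaptor, was lower in dNSC than in CNS_NSC by -1.20 ± 0.15. At the first step, pNSC_L against ESC, 2 adaptors rose and 0 fell (median 0.09), and in pNSC_LF against pNSC_L 0 were called (median -0.04).

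Cytoplasmic dynein and dynactin carry cargo the opposite way along microtubules. Of their 18 genes 6 rose and 1 fell in dNSC against pNSC_LF (median 0.16), 8 rose and 0 fell in dNSC against ESC (median 0.29), 9 rose and 0 fell in CNS_NSC against ESC (median 0.30), and 3 were higher and 6 lower in dNSC against CNS_NSC (median -0.08). Dynlt3, a dynein light chain, rose by 2.02 ± 0.21 in CNS_NSC against ESC. From ESC to pNSC_L 2 rose and 1 fell (median 0.11), and 0 were called at the next passage (median 0.01). Beside these counts, 38.6% of all genes were called in dNSC against pNSC_LF and 40.5% in dNSC against ESC. The shares were 43.8% in CNS_NSC against ESC, 34% in dNSC against CNS_NSC and 13.4% in pNSC_L against ESC. Medians over all genes lay between -0.01 and 0.04.

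Of 14 neuronal tubulins and microtubule-associated proteins 7 rose and 3 fell in dNSC against pNSC_LF (median 0.46), 6 rose and 3 fell in dNSC against ESC (median 0.31), 8 rose and 2 fell in CNS_NSC against ESC (median 0.57), and 3 were higher and 6 lower in dNSC against CNS_NSC (median -0.24). From ESC to pNSC_L 0 rose and 2 fell (median -0.02), and 0 were called in pNSC_LF against pNSC_L (median -0.07). Beside these counts, 38.6% of all genes were called in dNSC against pNSC_LF and 40.5% in dNSC against ESC. The shares were 43.8% in CNS_NSC against ESC, 34% in dNSC against CNS_NSC and 13.4% in pNSC_L against ESC. Medians over all genes lay between -0.01 and 0.04. Map2, which binds dendritic microtubules, rose by 3.71 ± 0.12 in CNS_NSC against ESC and by 2.41 ± 0.12 in dNSC against pNSC_LF. Stmn2, a tubulin-binding protein of growing axons, read 12.34 to 12.81 in ESC and primitive cells, 11.41 and 11.42 in dNSC, and 6.71 and 6.26 in CNS_NSC. It fell by 5.88 ± 0.15 in CNS_NSC against ESC (adjusted p = 1.7e-09 by limma), opposite in sign to Kif1a, Kif1b and Kif3c and of the same sign as Kif5a and Kif5c.

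The 7 neuron markers had a summed linear intensity of 6658 to 6675 in ESC, 6735 to 8126 in pNSC_L, 6778 to 6825 in pNSC_LF, 4949 to 5056 in dNSC, and 1127 to 1766 in CNS_NSC. Stmn2 made up 78% to 88.3% of that sum in ESC and primitive cells and 54% to 54.8% in dNSC. Without it the sum was 1350 to 1465 in ESC, 951.4 to 963.4 in pNSC_L, 815.9 to 839.2 in pNSC_LF, 2235 to 2324 in dNSC and 1050 to 1661 in CNS_NSC. Of the 7, 6 rose and 1 fell in dNSC against pNSC_LF, 3 rose and 3 fell in CNS_NSC against ESC, and 4 were higher in dNSC than in CNS_NSC with 0 lower. Over all genes 19.3% rose and 19.3% fell in dNSC against pNSC_LF, and 21.7% and 22.1% in CNS_NSC against ESC. In dNSC against CNS_NSC 17.6% of all genes were higher and 16.5% lower, and 20.7% were higher in dNSC against ESC. Dcx, which marks young neurons, was below 6.39 on all 6 arrays of ESC and primitive cells, at 9.05 and 9.24 in dNSC, and at 8.93 and 6.56 in CNS_NSC. Across those CNS_NSC replicates Kif1a stood at 11.12 and 10.90 and Kif3c at 9.95 and 9.84. Neurod1, a neuronal transcription factor, was below 6.39 on both CNS_NSC arrays. The 6 glia markers summed to 888.7 to 900.7 in ESC, 1462 to 1539 in pNSC_L, 1434 to 1565 in pNSC_LF, 952.6 to 1054 in dNSC and 21870 to 22560 in CNS_NSC. Among them, 5 of the 6 rose in CNS_NSC against ESC. The glia marker Aldh1l1 read 9.65 and 9.72 in pNSC_L, 9.68 and 9.74 in pNSC_LF, and 7.42 and 7.25 in dNSC. The 3 endoderm markers summed to 644.4 to 731.5 in ESC, 981.3 to 1183 in pNSC_L, 898.4 to 898.6 in pNSC_LF, 1620 to 1720 in dNSC and 632.2 to 642.7 in CNS_NSC. All 3 were called higher in dNSC against ESC and against CNS_NSC (medians 1.40 and 1.65), and Sox17 (1.64 ± 0.12) and Gata6 (1.24 ± 0.11) in dNSC against pNSC_LF. The 5 pluripotency markers summed to 23310 to 25070 in ESC, 4886 to 5190 in dNSC and 791.4 to 796.0 in CNS_NSC. The part of neurons, glia, endoderm or pluripotent cells in the cultures in these kinesin values was not tested.

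**Figure D4:**
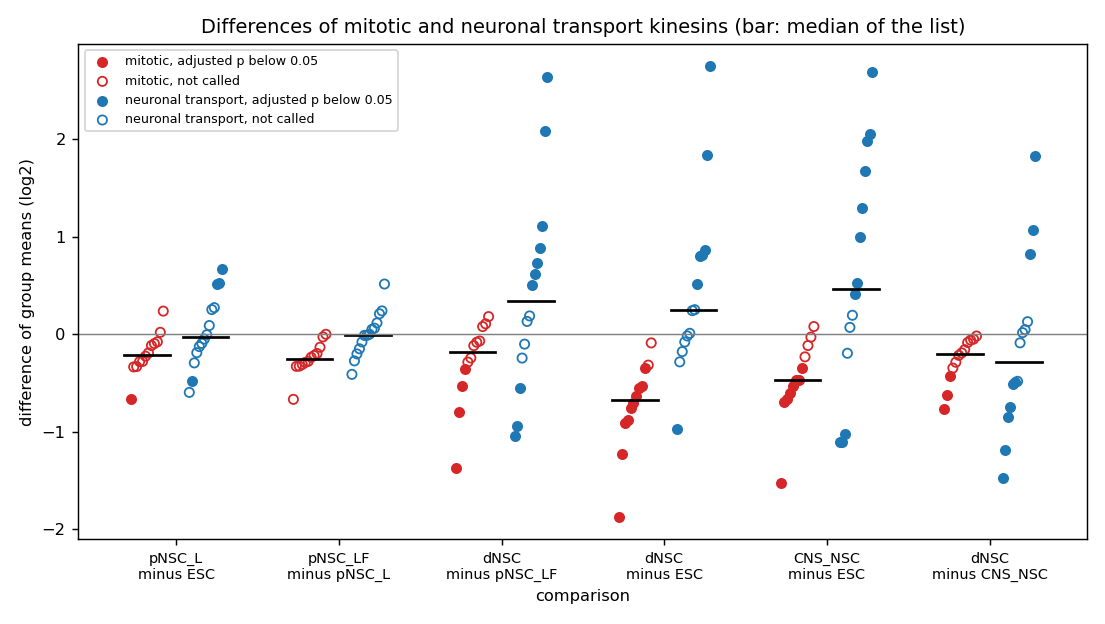
Difference of group means (vertical axis, log2 scale) of each mitotic (red) and neuronal transport (blue) kinesin in the 6 comparisons (horizontal axis), filled where limma gave an adjusted p below 0.05, with a bar at the median of each list. In dNSC against ESC the mitotic genes lie below 0, with 10 filled points, whereas the transport genes reach from Kif13b at -0.97 to Kif21a at 2.75.

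Of the 6 kinesins of cilia and hedgehog signalling 2 fell and 0 rose in dNSC against pNSC_LF (19.3% of all genes fell there) and in dNSC against ESC (19.9%). In CNS_NSC against ESC and in dNSC against CNS_NSC 1 fell and 0 rose (22.1% and 16.5% of all genes fell). In pNSC_L against ESC and in pNSC_LF against pNSC_L 0 were called (13.4% and 1.78% of all genes were). The group means of Kif24 and Kif9 ranged over 0.91 and 0.74. Kif7, the scaffold that passes hedgehog signals to Gli factors at the cilium tip, read 8.21 and 8.42 in ESC, 8.04 and 8.40 in pNSC_L, 8.22 and 8.48 in pNSC_LF, 8.49 and 8.60 in dNSC, and 8.63 and 8.43 in CNS_NSC. Its groups overlapped from ESC to pNSC_LF, both neural groups lay above ESC, and no comparison called it (0.23 ± 0.15 in dNSC against ESC, adjusted p = 0.28 by limma).

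Kif24, a centriole kinesin that restrains cilium growth, fell by 0.72 ± 0.17 in dNSC against pNSC_LF (adjusted p = 0.0067 by limma), by 0.51 ± 0.17 in dNSC against ESC and was lower by -0.60 ± 0.17 in dNSC than in CNS_NSC. These calls were lost, in the same order, without pNSC_LF replicate 2 or dNSC replicate 2 (adjusted p up to 0.065), without any 1 of the 4 arrays compared, ESC and dNSC (up to 0.19), and without dNSC replicate 1 or 2 or CNS_NSC replicate 2 (up to 0.12). Kif9, a motor of motile cilia, fell by 0.64 ± 0.12 in dNSC against pNSC_LF (adjusted p = 0.0015). Its falls against ESC, 0.36 ± 0.12 in dNSC and 0.46 ± 0.12 in CNS_NSC, were lost without ESC replicate 2 (adjusted p up to 0.21 and 0.083), the former also without dNSC replicate 1 or 2. Kif6, Kif19a and Kif27 were called in no comparison, and Kif27, a motile cilium gene related to Kif7, was below the lower quartile on 9 of 10 arrays. After quantile or cyclic loess normalization Kif27 was called lower in CNS_NSC against ESC (adjusted p = 0.045 and 0.039 by limma). The 4 markers of multiciliated cells summed to between 661.5 and 884.5 on all 10 arrays.

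Intraflagellar transport genes, whose trains are pulled by kinesin-2, went both ways. Of 14 measured, 3 rose and 1 fell in dNSC against pNSC_LF (median 0.08), 2 and 2 in dNSC against ESC (median 0.04), 4 and 3 in CNS_NSC against ESC (median -0.09), and 7 were higher and 3 lower in dNSC against CNS_NSC (median 0.26). In pNSC_L against ESC and in pNSC_LF against pNSC_L 0 were called (medians -0.06 and 0.01). Beside these counts, 38.6% of all genes were called in dNSC against pNSC_LF and 40.5% in dNSC against ESC. The shares were 43.8% in CNS_NSC against ESC, 34% in dNSC against CNS_NSC and 13.4% in pNSC_L against ESC. Medians over all genes lay between -0.01 and 0.04. Dync2h1, the dynein that returns the trains, rose by 1.20 ± 0.13 in dNSC against ESC (adjusted p = 4.0e-05 by limma), while Ift88, a train subunit, was higher in dNSC than in CNS_NSC by 0.87 ± 0.15.

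Among the 7 other kinesins, 2 rose and 1 fell in dNSC against pNSC_LF, where 38.6% of all genes were called. In dNSC against ESC 1 rose and 2 fell (background 40.5%), and in CNS_NSC against ESC 2 and 2 (43.8%). In dNSC against CNS_NSC 1 was higher and 2 lower (background 34%). Kifc3, a minus-end motor of epithelial junctions, read 9.36 and 9.24 in ESC, 9.60 and 9.17 in pNSC_L, 8.96 and 9.06 in pNSC_LF, 8.84 and 8.73 in dNSC, and 10.02 and 9.73 in CNS_NSC. CNS_NSC was above and dNSC below all other arrays. Kifc3 was 2.12-fold lower in dNSC than in CNS_NSC (-1.09 ± 0.15, adjusted p = 0.00034 by limma). It rose by 0.57 ± 0.15 in CNS_NSC and fell by 0.52 ± 0.15 in dNSC against ESC. The former call was lost without ESC replicate 2 or CNS_NSC replicate 1 (adjusted p up to 0.085), the latter without any 1 of ESC replicate 1, ESC replicate 2, dNSC replicate 1 and dNSC replicate 2 (up to 0.12).

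Kif26b, an unconventional kinesin of cell adhesion in the developing kidney, was highest in dNSC. Its probe set read 6.97 and 7.14 in ESC, 7.36 and 7.13 in pNSC_L, 7.33 and 7.35 in pNSC_LF, 7.86 and 7.91 in dNSC, and 7.10 and 7.33 in CNS_NSC. The other 4 groups overlapped in a chain from 6.97 to 7.36. Kif26b rose by 0.54 ± 0.12 in dNSC against pNSC_LF (adjusted p = 0.0053 by limma) and by 0.83 ± 0.12 against ESC (adjusted p = 0.00037), and was higher in dNSC than in CNS_NSC by 0.66 ± 0.12 (adjusted p = 0.0019). A second, dimmer probe set read 8.20 and 8.32 in dNSC and 6.69 to 7.18 on the other 8 arrays.

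Kif26a, a relative without ATPase activity that restrains Ret signalling in enteric neurons, read 8.58 and 8.72 in ESC, 8.56 and 8.34 in pNSC_L, 8.21 and 8.27 in pNSC_LF, 8.37 and 8.37 in dNSC, and 8.22 and 8.30 in CNS_NSC. ESC was highest. Its fall of 0.39 ± 0.11 in CNS_NSC against ESC (adjusted p = 0.015 by limma) was lost without ESC replicate 2 or CNS_NSC replicate 1 (adjusted p up to 0.11). Kif16b, an early endosome motor, fell by 0.76 ± 0.11 in dNSC against pNSC_LF, by 0.55 ± 0.11 in dNSC against ESC and by 0.46 ± 0.11 in CNS_NSC against ESC. Kif1c, a Golgi and vesicle motor, rose by 0.75 ± 0.09 in CNS_NSC against ESC (adjusted p = 9.3e-05) and was lower in dNSC than in CNS_NSC by -0.58 ± 0.09. Its rise of 0.27 ± 0.09 in dNSC against pNSC_LF (adjusted p = 0.048) was lost without any 1 of pNSC_LF replicate 1, pNSC_LF replicate 2, dNSC replicate 1 and dNSC replicate 2, and under other alternatives (adjusted p up to 0.24). A dimmer probe set of Kif1c read 7.45 and 7.44 in dNSC, 6.63 and 6.79 in pNSC_LF and 6.75 and 6.87 in ESC. With the mean of all probe sets Kif1c kept its call in dNSC against pNSC_LF. With that mean it was also called higher in dNSC against ESC (0.40, adjusted p = 0.0057 by limma). Kif2a, a microtubule depolymerase of growing axons, and Kif12 were called in no comparison, nor was Kif4-ps, whose probe sets may share sequence with Kif4.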

How the data were processed

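RNA of 10 cultures was hybridised to Affymetrix gene arrays after Trizol extraction, per the labels' protocols. The deposited log2 intensity per probe set and array was made by the authors with RMA and Partek, named without versions in the submitters' processing notes. RMA makes the value distributions of arrays alike and compresses differences of dim probe sets. No header states the log base, which was inferred from the range of values. Of 35556 probe sets, 21789 carried 1 gene symbol, 1621 several and 12146 none here. Only the first kind was used, and 21698 of them matched the RefSeq gene table by gene number with 0 symbols changed. All 40 kinesins matched.

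The main model, run in limma 3.58.1 under R 4.3.3, gave each of the 5 groups its own mean and used all 10 arrays. It had 5 residual degrees of freedom and 4.9 from the prior, and differences had a median SE of 0.13. P-values were adjusted by the Benjamini-Hochberg method over 19938 genes per comparison, with 0.05 as threshold. The fit was also tested on simulated data. The labels' design text calls the 2 samples of a group biological replicates, and their number limits precision. Values are differences ± SE with n = 2 arrays per group.

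The kinesins and all lists were chosen with earlier results of these data known, so list counts and medians carry no test. Array values are given for up to 6 called kinesins per comparison with the largest differences and for a set of landmark kinesins. Promoter letters were searched on both strands in the RefSeq table. Tables and plots were made with pandas 2.3.3 and matplotlib 3.10.9 in Python 3.11.15. Alternatives were other normalizations, filters on dim genes, variance models, only the 2 groups compared, the replicate block, the mean of all probe sets and leaving out each array. Protein sequences were not used here.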

Additional observations from a re-analysis of the deposited data

How the results depend on the processing

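Over the 40 kinesins and 6 comparisons, 2802 alternative values were computed. Of these, 2674 stayed on their side of the threshold, where a difference without a call could change sign. A call was lost in 84 and gained in 44, and 0 changed sign with a call in the main fit or the alternative. Calls held in every alternative for 0 of 5 kinesins in pNSC_L against ESC, 13 of 19 in dNSC against pNSC_LF, 17 of 22 in dNSC against ESC, 17 of 24 in CNS_NSC against ESC and 11 of 16 in dNSC against CNS_NSC. With 2 arrays per group, a lost call without 1 array also reflects the smaller sample. Of 96 counts and medians outside the left-out arrays, 85 stayed near their main value, 11 moved and 0 reversed. In pNSC_L against ESC 3 kinesins were called with only the 2 groups in the fit. In pNSC_LF against pNSC_L, where the count was 0, it was 2 after quantile normalization (Kif14 and Kif21a), 1 after cyclic loess, 1 with the dimmest 30% of genes left out, 2 with the dimmest 50% left out and 1 with the replicate block (Kif14, -0.67, adjusted p = 0.024 by limma). The mitotic median in CNS_NSC against ESC was -0.38 after cyclic loess. With the dimmest 50% left out, which removes members, the transport medians were 0.56 in dNSC against pNSC_LF, 0.38 in dNSC against ESC, 0.76 in CNS_NSC against ESC and -0.49 in dNSC against CNS_NSC; other causes were not tested.

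Leaving out 1 array at a time gave 0 to 6 kinesins called in pNSC_L against ESC (0 without ESC replicate 1, 1 without ESC replicate 2), 0 to 1 in pNSC_LF against pNSC_L (1 without pNSC_L replicate 2), 13 to 15 in dNSC against pNSC_LF, 17 to 19 in dNSC against ESC, 17 to 24 in CNS_NSC against ESC and 12 to 18 in dNSC against CNS_NSC. The mitotic medians ran, in the same order of comparisons, from -0.30 to -0.20, -0.32 to -0.15, -0.24 to -0.12, -0.70 to -0.61, -0.56 to -0.37 and -0.35 to -0.089. The transport medians ran from -0.10 to 0.10, -0.03 to 0.06, 0.32 to 0.36, 0.16 to 0.34, 0.41 to 0.52 and -0.36 to -0.17. Replicate numbers were not taken to pair the arrays, since deviations of same-numbered arrays correlated at -0.107 to 0.375 over 10 pairs of groups and above 0.1 in only 6. As a hint from the data, those 6 held every pair among ESC, pNSC_L, pNSC_LF and CNS_NSC and none with dNSC. With the replicate block the kinesin counts were 5, 1, 18, 22, 24 and 17: Kif14, above, and Kif20b in dNSC against CNS_NSC (-0.35, adjusted p = 0.034 by limma) gained a call and Kif1c in dNSC against pNSC_LF lost one. Kif2b and Kif27, near or below the lower quartile, are limited by signal over background.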
